A study of Homo sapiens with 12 samples.

Results

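The genes described here are 9 transcriptional targets of YAP grouped as intracellular and membrane proteins: ANKRD1, AMOTL2, NUAK2, AJUBA, MYOF, PRSS23, F3, DDAH1 and DAB2. PRSS23 is made with a secretion signal and fits that grouping less well than the others. They were taken by symbol from a table of 20979 gene entries, in which each of the 9 stood on 1 line, and all 9 passed the filter on low values that left 12276 genes for testing. PolyA RNA was sequenced 48 h after transfection of 25 nM siRNA in A704 and CAKI-1, both renal cancer lines, and in HK2, an immortalised line from normal kidney. Each line gave 1 library with each of 4 reagents: PTPN14-1 siRNA, PTPN14-2 siRNA, LATS siRNA and a non-targeting control siRNA, so that 12 libraries were compared. PTPN14-1 and PTPN14-2 are independent siRNAs to the same transcript. The sample titles number them as used here, and the sample descriptions number them the other way round.

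The 3 lines are the replicates of a reagent, and each line is a single line grown in its own medium, so a difference between lines cannot be told apart from a difference between media. The labels do not say that the libraries of a line came from separate cultures, so the p-values reflect how these libraries scatter, which may be technical. In bulk RNA fewer cells of a type and less RNA per cell cannot be told apart. Levels are the values that the authors deposited. They were read as FPKM, fragments per kilobase of gene scaled to the reads of the library, since no source names the unit. Differences are on the log2(FPKM + 1) scale, which understates the change of low genes, and a gene was said to have passed when its limma p-value, adjusted by Benjamini-Hochberg over all 12276 genes, was under 0.05. The effective depth estimated from the low values ran from 16.95 to 23.35 M reads per library, and the RNA integrity number was 10 in every library except the A704 control, at 9.6. Relative to the control library of its line, PTPN14 kept 21.4 to 37.5% of its FPKM under the PTPN14 siRNAs. Under LATS siRNA LATS1 kept 22.5 to 30.7% and LATS2 98.2 to 122%, and the label does not say which of these kinases was targeted.

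YAP and its relative TAZ are coactivators without a DNA-binding domain of their own. When the Hippo kinases LATS1 and LATS2 phosphorylate them they are held in the cytoplasm, and when they are not phosphorylated they enter the nucleus and bind TEAD factors, which recognise a GGAATG core in DNA. PTPN14, a cytosolic protein tyrosine phosphatase, binds YAP and retains it outside the nucleus. Several targets of YAP feed back on the pathway: AMOTL2 is an angiomotin that binds YAP, AJUBA is a LIM-domain scaffold that binds LATS kinases, and NUAK2 is a kinase of the AMPK family.

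Promoter sequences are shown because all of these genes are described as targets of a TEAD coactivator. RefSeq promoter windows (GRCh38.p14) were found for all 9 genes, 14 windows in all since some genes have several starts, and the 250 bases before each start were searched on both strands. GGAATG or its reverse complement CATTCC stood in a window of 6 of the 9 genes, where 14.3% of 27305 genes held it, and in 6 of their 14 windows, where 11.9% of 35116 windows held it. The 8 matches are given below on the strand that reads GGAATG, 5′ to 3′, with the motif in capitals and the distance of its first base on the gene's strand from the start.
ANKRD1, 220 bases before the start, chr10:90921291-90921318: tcaccaccaaaGGAATGgccctctcaca
ANKRD1, 128 bases before the start, chr10:90921199-90921226: acactgagtctGGAATGaaaattcacct
NUAK2, 197 bases before the start, chr1:205321926-205321953: cccgcccaccaGGAATGgggactagggg
NUAK2, 18 bases before the start, chr1:205321747-205321774: tataacaacttGGAATGctgtgctttac
AMOTL2, 69 bases before the start, chr3:134374500-134374527: ctgctatgccaGGAATGtgagagtttca
AJUBA, 59 bases before the start, chr14:22976885-22976912: ggaagttggctGGAATGaagccaaagca
DDAH1, 218 bases before the start, chr1:85578402-85578429: aaggaatctctGGAATGgcgtgtgtttg
DAB2, 11 bases before the start, chr5:39424981-39425002: ccccaGGAATGtgccaggatgt
All of these genes lie on the minus strand. The AMOTL2, AJUBA and DDAH1 matches each lay in only 1 of that gene's windows, and no match was found in the windows of MYOF, PRSS23 or F3. The starts are those of RefSeq. The ANKRD1 match at 220 bases, the NUAK2 match at 197 bases and the DDAH1 match lay outside the annotated span of their gene. The other matches, including those of AMOTL2, AJUBA and DAB2, lay inside that span, so they are not upstream of the whole annotated gene.

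TGANTCA, in which N is any base, is its own reverse complement and a loose form of the motif of AP-1 factors. It stood in windows of ANKRD1 (TGATTCA), DDAH1 (TGAATCA) and F3, where 8.1% of genes held it, and no match of one motif overlapped another. F3 held 2 of these, and the stretch of its window that lies outside annotated exons is shown with both in capitals (chr1:94541801-94542009, minus strand).
F3: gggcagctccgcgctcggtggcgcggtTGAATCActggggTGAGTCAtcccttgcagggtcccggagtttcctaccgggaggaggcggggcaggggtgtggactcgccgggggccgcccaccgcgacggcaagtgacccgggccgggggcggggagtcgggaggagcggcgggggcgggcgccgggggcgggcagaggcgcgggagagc
The same stretch of NUAK2, which had the largest difference among the 9 between PTPN14-1 and control siRNA, is shown with its distal CATTCC in capitals (chr1:205321792-205321995, minus strand).
NUAK2: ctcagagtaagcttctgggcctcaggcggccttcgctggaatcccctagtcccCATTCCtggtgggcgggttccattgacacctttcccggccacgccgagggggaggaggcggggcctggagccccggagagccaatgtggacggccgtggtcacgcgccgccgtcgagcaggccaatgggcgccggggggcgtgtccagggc
A match is a description of letters in these windows, and binding was not measured. The TGANTCA match of DDAH1 also lay inside the annotated span of its gene.

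The first question was how the 9 genes were expressed in the lines. MYOF was the most abundant in every line and varied least between them, whereas the ratio of the highest to the lowest mean FPKM was largest for F3 and DAB2. CAKI-1 had the lowest mean of the lines for 6 of the 9 genes, A704 for NUAK2, and HK2 for MYOF and DAB2. A704 and HK2 each had the highest mean for 4 genes and CAKI-1 for MYOF. Each mean is over the 4 libraries of a line, which received different siRNAs. The order of lines was not counted over all genes, so these counts do not set the members apart.

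F3 encodes tissue factor, the membrane receptor that starts coagulation. It averaged 2.62 ± 0.771 FPKM in A704 and 0.233 ± 0.0538 in CAKI-1, against 5.88 ± 1.52 FPKM in HK2 (SD, n = 4 each). The HK2 mean was 25.3 times the CAKI-1 mean, and the difference between CAKI-1 and HK2 was -2.45 on the log2 scale (SE 0.14, limma adjusted p = 2.01e-09). Its level in CAKI-1 corresponds to an estimated 10 to 20 reads per library, so its changes within that line are poorly resolved.

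DAB2 encodes an endocytic adaptor of clathrin-coated pits. It averaged 51.7 ± 5.21 FPKM in A704 and 29.1 ± 3.38 in CAKI-1, against 5.25 ± 0.987 FPKM in HK2 (SD, n = 4 each). No library of 1 line overlapped those of another, and A704 exceeded HK2 by 3.08 (SE 0.08, limma adjusted p = 4.47e-13). Such separation was usual: 68.8% of all genes did not overlap between A704 and CAKI-1, 76.1% between A704 and HK2 and 69.8% between CAKI-1 and HK2. ANKRD1, the cardiac ankyrin repeat protein, known as a transcriptional cofactor in muscle, had the order A704, HK2, CAKI-1, with means of 28.3 ± 5.08 and 3.94 ± 1.56 FPKM in A704 and CAKI-1, against 12.9 ± 1.58 FPKM in HK2.

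DDAH1, which degrades asymmetric dimethylarginine, an inhibitor of nitric oxide synthases, averaged 26.6 ± 5.49 FPKM in A704 and 7.56 ± 1.88 in CAKI-1, against 42.9 ± 9.76 in HK2. AJUBA followed the same order, with 19.0 ± 2.74 and 11.4 ± 3.82 FPKM in A704 and CAKI-1, against 35.2 ± 5.08 in HK2. NUAK2 was at 7.15 ± 3.35 FPKM in A704 and 14.2 ± 4.49 in CAKI-1, against 21.2 ± 5.26 in HK2. PRSS23, a serine protease, was at 36.4 ± 8.02 and 12.2 ± 3.36 FPKM in A704 and CAKI-1, against 29.9 ± 6.47 in HK2.

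AMOTL2 and MYOF, a ferlin of the plasma membrane, were abundant in all lines. AMOTL2 averaged 66.3 ± 11.2 FPKM in A704 and 41.3 ± 12.1 in CAKI-1, against 59.1 ± 12.7 in HK2. MYOF averaged 109 ± 10.4 and 115 ± 11.3 FPKM in A704 and CAKI-1, against 91.5 ± 10.1 in HK2. For MYOF the highest and lowest line means differed by a factor of 1.25, and A704 and CAKI-1 did not differ beyond their spread (log2 difference -0.07, 95% interval -0.20 to 0.05, limma adjusted p = 0.269).

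By the same test 9 of 9 genes passed between A704 and HK2, where 84.6% of all genes did: 5 were higher in A704, where 40.6% of genes were, and 4 lower, where 44% were. Between CAKI-1 and HK2 9 of 9 passed, where 81.7% of genes did, with 2 higher in CAKI-1, where 40.4% were, and 7 lower, where 41.3% were. Between A704 and CAKI-1 8 of 9 passed, where 81.1% of genes did, with 7 higher in A704, where 39.3% were, and 1 lower, where 41.8% were. Summed over the directions, the shares that passed lie near the background of lines that differ at most of their genes. By direction the members leaned to lower values in CAKI-1. There 7 of 9 were lower than in HK2, where 41.3% of genes were. Likewise 7 of 9 were higher in A704 than in CAKI-1, where 39.3% of genes were. This leaning was not tested. The libraries of A704 and HK2 did not overlap for 4 of the 9 genes (ANKRD1, NUAK2, AJUBA and DAB2), where 76.1% of all genes did not overlap. Those of CAKI-1 and HK2 did not overlap for 6, where 69.8% of genes did not, and those of A704 and CAKI-1 for 7, where 68.8% did not. The A704 and HK2 difference of AMOTL2 was small (0.17, SE 0.07, adjusted p = 0.0468) and held in 4 of 12 fits without 1 library. Without the PTPN14-2, LATS or control library of A704, the PTPN14-2 library of CAKI-1 or any 1 of the 4 HK2 libraries it did not pass, with adjusted p up to 0.196. It also ended without the filter on low values (adjusted p = 0.0578), after TPM rescaling (0.0724) and with plain limma (0.0544). That of PRSS23 ended without the PTPN14-2 library of HK2 (adjusted p = 0.0711).

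**Figure D1:**
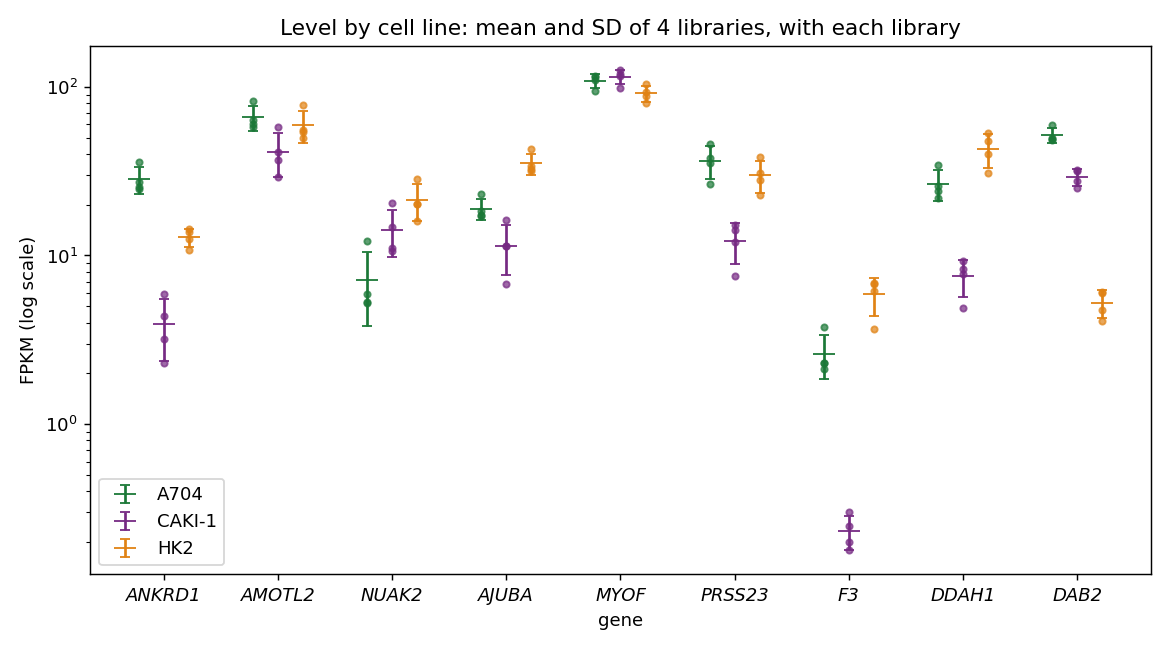
Level of the 9 genes by cell line on a logarithmic FPKM axis, with each of the 4 libraries of a line as a point and the mean and SD as bars. F3 runs from 0.233 FPKM in CAKI-1 to 5.88 in HK2, DAB2 is lowest in HK2, and MYOF lies near 100 FPKM in all lines.

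The second question was what each siRNA did to these genes against the control of the same line. With PTPN14-1 siRNA 5 of the 9 rose and none fell: NUAK2, AMOTL2, PRSS23, AJUBA and MYOF. Of the 12276 genes 5.87% passed, 2.39% higher and 3.47% lower. With PTPN14-2 siRNA 2 rose, PRSS23 and DDAH1, and none fell, where 1.35% of all genes passed, 0.448% higher and 0.904% lower. With LATS siRNA none passed in either direction by limma, where 0.122% of all genes did, 0.0244% higher and 0.0978% lower. At an unadjusted p under 0.05 there were 9 of 9 with PTPN14-1, where 22.8% of genes had such a p, 5 of 9 with PTPN14-2, where 15% did, and 5 of 9 with LATS siRNA, where 11.2% did. The median difference over the 9 was 0.43, 0.26 and 0.26 with PTPN14-1, PTPN14-2 and LATS siRNA, and over all genes it was 0.002, -0.002 and -0.003 in the same order. The comparisons share the 3 control libraries, so a low value in a control raises all of the estimates.

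**Figure D2:**
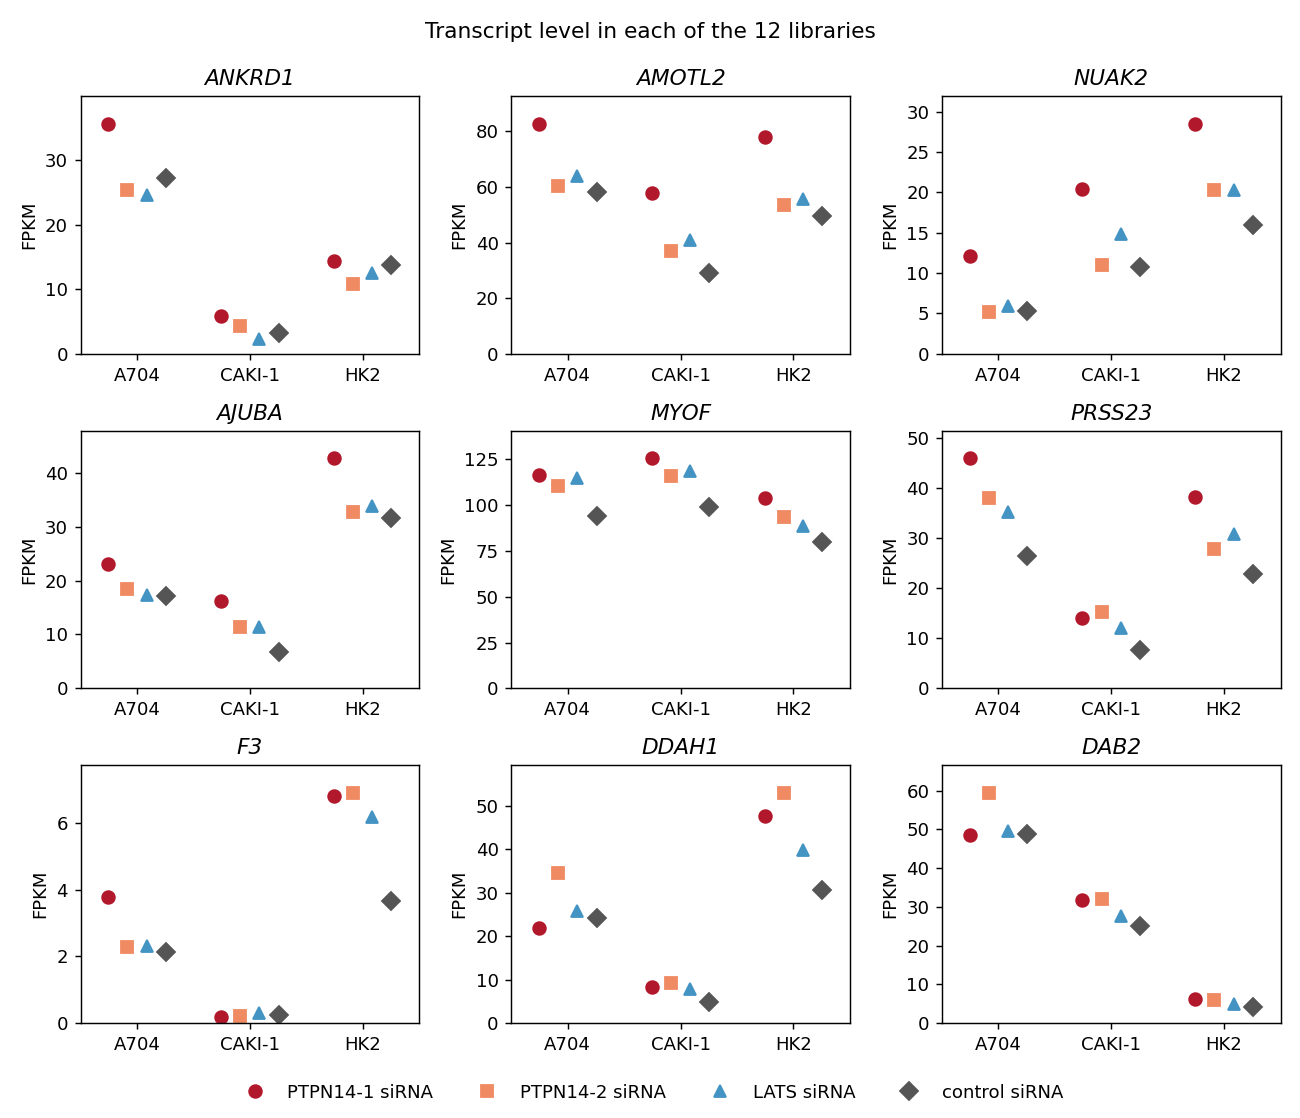
FPKM of each gene in the 12 libraries, on axes that start at 0, with lines along the horizontal axis and the 4 siRNAs as symbols. PTPN14-1 gives the highest value of the line in all 3 lines for ANKRD1, AMOTL2, NUAK2, AJUBA and MYOF, a pattern of 7.74% of all tested genes, and the control is never the highest.

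NUAK2 had the largest difference with PTPN14-1 siRNA. Its FPKM in A704 was 12.2 with PTPN14-1, 5.22 with PTPN14-2 and 5.93 with LATS siRNA, against 5.28 with control siRNA. In CAKI-1 NUAK2 stood at 20.4, 11.1 and 14.8 FPKM with PTPN14-1, PTPN14-2 and LATS siRNA, against 10.7 with control siRNA. In HK2 NUAK2 stood at 28.5, 20.3 and 20.2 FPKM with the same 3 siRNAs, against 15.9 with control siRNA. The PTPN14-1 library was the highest of each line, by 1.79 to 2.30 times the control, and the PTPN14-2 library of A704 lay just below its control. NUAK2 rose by 0.91 with PTPN14-1 (SE 0.11, n = 3 against 3, limma adjusted p = 6.28e-04), and had 0.12 (SE 0.11, adjusted p = 0.648) with PTPN14-2 and 0.30 (SE 0.11, adjusted p = 0.341) with LATS siRNA.

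AMOTL2 stood at a higher level and also had its highest value with PTPN14-1 in each line. In A704 AMOTL2 was at 82.7, 60.5 and 63.8 FPKM with PTPN14-1, PTPN14-2 and LATS siRNA, against 58.0 with control siRNA. In CAKI-1 AMOTL2 was at 57.9, 36.8 and 41.1 FPKM, against 29.2 with control siRNA. In HK2 AMOTL2 was at 77.8, 53.7 and 55.6 FPKM, against 49.4 with control siRNA. In every line the order was PTPN14-1, LATS, PTPN14-2 and control. AMOTL2 rose by 0.70 with PTPN14-1 (SE 0.09, limma adjusted p = 7.75e-04), and had 0.17 (SE 0.09, adjusted p = 0.387) with PTPN14-2 and 0.26 (SE 0.09, adjusted p = 0.304) with LATS siRNA.

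AJUBA moved most in CAKI-1, where its control was lowest. In A704 AJUBA was at 23.0, 18.4 and 17.4 FPKM with PTPN14-1, PTPN14-2 and LATS siRNA, against 17.1 with control siRNA. In CAKI-1 AJUBA was at 16.2, 11.4 and 11.4 FPKM, against 6.80 with control siRNA. In HK2 AJUBA was at 42.7, 32.6 and 33.8 FPKM, against 31.6 with control siRNA. The PTPN14-1 library stood 1.34 to 2.38 times above the control, while PTPN14-2 and LATS libraries of A704 and HK2 lay close to it. AJUBA overlaps an annotated gene on the same strand, AL132780.3, which was not analysed here, so reads shared between them are uncertain. AJUBA rose by 0.65 with PTPN14-1 (SE 0.12, limma adjusted p = 0.0105) in the 3 lines, and had 0.27 with PTPN14-2 (SE 0.12, adjusted p = 0.331) and 0.26 with LATS siRNA (SE 0.12, adjusted p = 0.454). It did not pass with PTPN14-1 when either CAKI-1 or HK2 was left out as a line, and AMOTL2 did not when HK2 was; MYOF did not when any 1 of the 3 lines was.

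PRSS23 was the 1 gene of the 9 that passed with both PTPN14 siRNAs. In A704 PRSS23 was at 45.9, 38.0 and 35.2 FPKM with PTPN14-1, PTPN14-2 and LATS siRNA, against 26.5 with control siRNA. In CAKI-1 PRSS23 was at 14.1, 15.2 and 12 FPKM, against 7.60 with control siRNA. In HK2 PRSS23 was at 38.2, 27.9 and 30.8 FPKM, against 22.8 with control siRNA. All 9 siRNA libraries lay above the control of their line, by 1.22 to 2.00 times. PRSS23 rose by 0.77 with PTPN14-1 (SE 0.10, limma adjusted p = 0.00167) and by 0.57 with PTPN14-2 (SE 0.10, adjusted p = 0.0183). Its LATS siRNA difference was 0.47 (SE 0.10, adjusted p = 0.146). The PTPN14-2 call ended without the PTPN14-2 or control library of A704 or CAKI-1 or the control of HK2 (adjusted p up to 0.122), without the filter on low values (0.0720), and without any 1 of the lines. PRSS23 overlaps FZD4, a Wnt receptor gene on the opposite strand. The strand setting of the gene counter is not given in the sources used here, and FZD4 itself had 15.8 to 21.6 FPKM in the A704 libraries, 0.19 to 0.30 FPKM in CAKI-1 libraries and 0.57 to 0.95 FPKM in HK2 libraries.

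MYOF, which serves membrane repair and receptor recycling, changed little but alike in all lines. In A704 MYOF was at 117, 110 and 115 FPKM with PTPN14-1, PTPN14-2 and LATS siRNA, against 93.9 with control siRNA. In CAKI-1 MYOF was at 126, 116 and 118 FPKM, against 98.97 with control siRNA. In HK2 MYOF was at 104, 93.4 and 88.6 FPKM, against 79.8 with control siRNA. The control was the lowest library of each line, and PTPN14-1 stood at 1.242 to 1.304 times its level. MYOF rose by 0.34 with PTPN14-1 (SE 0.07, limma adjusted p = 0.0128), and had 0.23 with PTPN14-2 (SE 0.07, adjusted p = 0.135) and 0.23 with LATS siRNA (SE 0.07, adjusted p = 0.277). The call with PTPN14-1 ended without any 1 of the 3 controls or the PTPN14-1 library of HK2 (adjusted p up to 0.0749), and after quantile normalization.

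DDAH1 and DAB2 had another order, with PTPN14-2 highest or level with PTPN14-1. In A704 DDAH1 was at 22, 34.5 and 25.8 FPKM with PTPN14-1, PTPN14-2 and LATS siRNA, against 24.1 with control siRNA. In CAKI-1 DDAH1 was at 8.36, 9.25 and 7.74 FPKM, against 4.89 with control siRNA. In HK2 DDAH1 was at 47.8, 53.1 and 39.9 FPKM, against 30.7 with control siRNA. PTPN14-2 was the highest library of every line, and PTPN14-1 lay below the control in A704 and above it in CAKI-1 and HK2. DDAH1 rose by 0.69 with PTPN14-2 (SE 0.12, limma adjusted p = 0.0180), and had 0.39 with PTPN14-1 (SE 0.12, adjusted p = 0.0862) and 0.34 with LATS siRNA (SE 0.12, adjusted p = 0.341). The PTPN14-2 call ended without any 1 of the PTPN14-2 libraries or the control of CAKI-1 or HK2 (adjusted p up to 0.118), without the filter on low values (0.0750), and without CAKI-1 or HK2 as a line. With PTPN14-1 it passed without the PTPN14-1 or the control library of A704 (adjusted p = 0.00729 and 0.0315).

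DAB2 in A704 was at 48.7, 59.5 and 49.6 FPKM with PTPN14-1, PTPN14-2 and LATS siRNA, against 49.0 with control siRNA. In CAKI-1 DAB2 was at 31.7, 32.0 and 27.7 FPKM, against 25.0 with control siRNA. In HK2 DAB2 was at 6.11, 6.02 and 4.78 FPKM, against 4.08 with control siRNA. Both PTPN14 libraries lay above LATS and control in CAKI-1 and HK2, and only PTPN14-2 did in A704. DAB2 had 0.27 (SE 0.09, limma adjusted p = 0.0903) with PTPN14-1, 0.36 (SE 0.09, adjusted p = 0.0699) with PTPN14-2 and 0.12 (SE 0.09, adjusted p = 0.636) with LATS siRNA. Without the PTPN14-1 library of A704 it passed with both PTPN14 siRNAs (adjusted p = 0.0195 and 0.0227).

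ANKRD1 was the only member with a lower estimate under LATS siRNA. In A704 ANKRD1 was at 35.7, 25.3 and 24.7 FPKM with PTPN14-1, PTPN14-2 and LATS siRNA, against 27.3 with control siRNA. In CAKI-1 ANKRD1 was at 5.89, 4.38 and 2.30 FPKM, against 3.18 with control siRNA. In HK2 ANKRD1 was at 14.4, 10.8 and 12.5 FPKM, against 13.7 with control siRNA. PTPN14-1 was the highest library of each line, and LATS siRNA lay below the control in all 3 lines, at 0.723 to 0.908 of it. No difference passed: ANKRD1 had 0.39 (95% interval 0.07 to 0.71, not adjusted for the number of genes; limma adjusted p = 0.142) with PTPN14-1, -0.02 (-0.34 to 0.30) with PTPN14-2 and -0.20 (-0.52 to 0.11) with LATS siRNA.

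F3 was low and its values differed in direction between lines. In A704 F3 was at 3.77, 2.29 and 2.30 FPKM with PTPN14-1, PTPN14-2 and LATS siRNA, against 2.12 with control siRNA. In CAKI-1 F3 was at 0.18, 0.20 and 0.30 FPKM, against 0.25 with control siRNA. In HK2 F3 was at 6.80, 6.90 and 6.16 FPKM, against 3.65 with control siRNA. All siRNA libraries of HK2 lay above the control, PTPN14-1 stood apart in A704, and in CAKI-1 every library was at or under 0.30 FPKM. F3 had 0.43 (SE 0.16, limma adjusted p = 0.131) with PTPN14-1, 0.26 (SE 0.16, adjusted p = 0.463) with PTPN14-2 and 0.25 (SE 0.16, adjusted p = 0.558) with LATS siRNA.

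**Figure D3:**
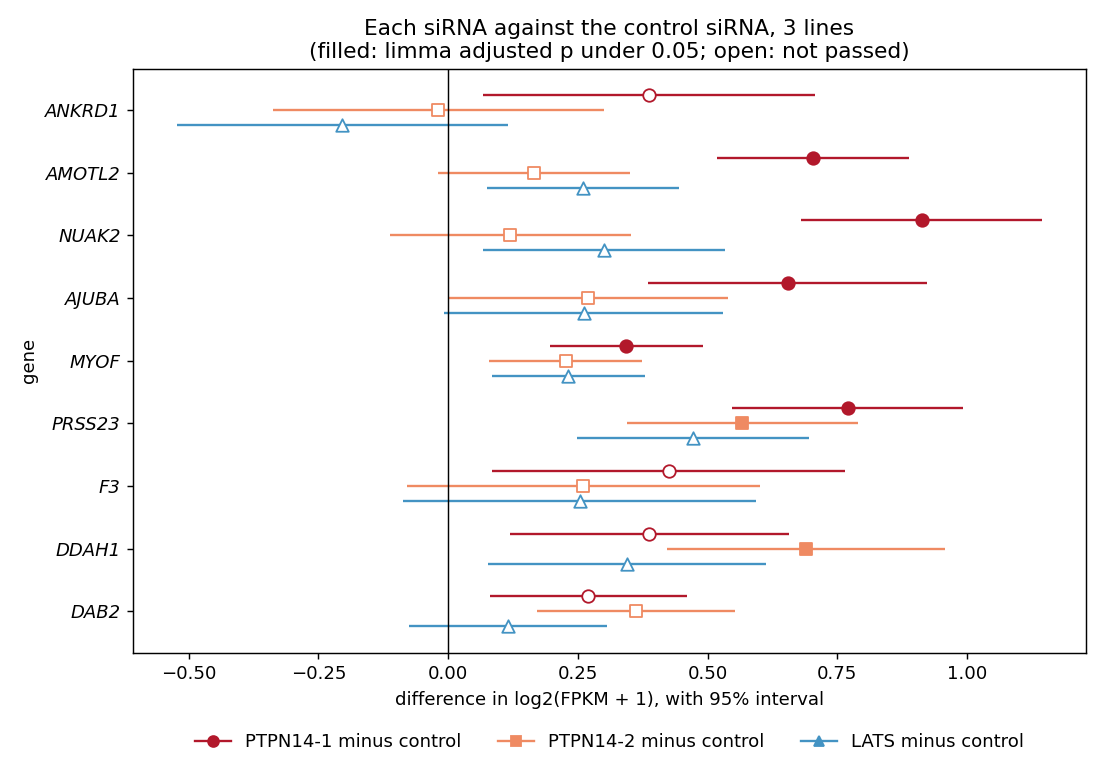
Difference of each siRNA from the control siRNA in log2(FPKM + 1), with the 95% interval of the limma fit (not adjusted for the number of genes). Filled symbols passed at the adjusted threshold; PTPN14-1 has filled symbols for AMOTL2, NUAK2, AJUBA, MYOF and PRSS23, PTPN14-2 for PRSS23 and DDAH1, and LATS siRNA has none.

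Within single lines, with no test, the members at 1.2 times the control or more in FPKM + 1 were counted. With PTPN14-1 siRNA A704 had 7, CAKI-1 had 8 and HK2 had 8, where 13.5, 8.06 and 12% of all genes reached that level. With PTPN14-2 siRNA there were 3, 6 and 5 in these lines, where 7.35, 7.69 and 7.63% of genes did. With LATS siRNA there were 2, 5 and 4, where 8.3, 11.5 and 6.44% of genes did. PRSS23 reached it in all 9 of these comparisons.

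Counted by rank within a line, without any test, the control was the lowest of the 4 libraries in 20 of 27 gene and line combinations and the highest in none. PTPN14-1 was the highest in 19, PTPN14-2 in 7 and LATS siRNA in 1. Over all tested genes, by line, PTPN14-1 was the highest library for 24.8 to 32.0%, PTPN14-2 for 22.9 to 26.1%, LATS siRNA for 20.5 to 32.2% and the control for 15.2 to 22.6%. Across all tested genes the control was the lowest library for 19.9% (A704), 14.0% (CAKI-1) and 20.9% (HK2). For AMOTL2, AJUBA, MYOF and PRSS23 it was lowest in all 3 lines, a pattern that 2.44% of all genes showed. LATS siRNA lay above the control in all 3 lines for 8 of the 9 genes, all but ANKRD1, where 18.2% of genes did so. PTPN14-1 did so for 6, where 20.6% of genes did, and PTPN14-2 for 6, where 20.9% did. The difference between LATS and control siRNA ran from 0.12 (DAB2) to 0.47 (PRSS23) for these 8 genes. It was of 1 sign and did not pass for any of them. In A704 AJUBA and DAB2 lay at only 1.014 and 1.012 times the control. In CAKI-1 F3 was at 0.30 FPKM with LATS siRNA against 0.25 with control siRNA, an estimated 20 and 16 reads, a step that is not resolved.

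When the PTPN14 siRNAs were treated as 1 target, their divergence became part of the spread and no member passed by limma. PRSS23 was then at 0.67 (SE 0.10, adjusted p = 0.0646), and the other 8 had adjusted p from 0.186 to 0.745. In that setting 3 of 12276 genes passed.

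The third question was whether the PTPN14 siRNAs differed from each other, a comparison whose estimate does not use the control libraries, though they enter the spread of the fit. NUAK2 and AMOTL2 were higher with PTPN14-1, by 0.79 (SE 0.11, limma adjusted p = 7.29e-04) and 0.54 (SE 0.09, adjusted p = 0.00199), and both held in each of the 12 fits without 1 library. They were 2 of 9, where 5.52% of all genes were higher with PTPN14-1, and no member was lower, where 6.18% were. ANKRD1 had 0.41 (95% interval 0.09 to 0.72, adjusted p = 0.0946) and AJUBA 0.38 (0.12 to 0.65, adjusted p = 0.0637), and neither passed. DDAH1 had a difference of -0.30 (-0.57 to -0.03, adjusted p = 0.133), which did not pass either.

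For the other 4 genes the interval included 0: PRSS23 had 0.20 (95% interval -0.02 to 0.43), MYOF 0.12 (-0.03 to 0.26), DAB2 -0.09 (-0.28 to 0.10) and F3 0.16 (-0.18 to 0.50). PTPN14-1 lay above PTPN14-2 in all 3 lines for ANKRD1, AMOTL2, NUAK2, AJUBA and MYOF, where 24.9% of all genes did so. The knockdown itself differed, with PTPN14 lower under PTPN14-1 by a log2 difference of -0.44 (SE 0.11, limma adjusted p = 0.0213), and its part in these differences was not tested. ANKRD1 passed without the PTPN14-2 or LATS library of CAKI-1 (adjusted p = 0.0479 and 0.0418), PRSS23 without the PTPN14-2 library of CAKI-1 (0.0458) and AJUBA without the control of CAKI-1 (0.00804). The count of 2 then became 4 without the PTPN14-2 library of CAKI-1.

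**Figure D4:**
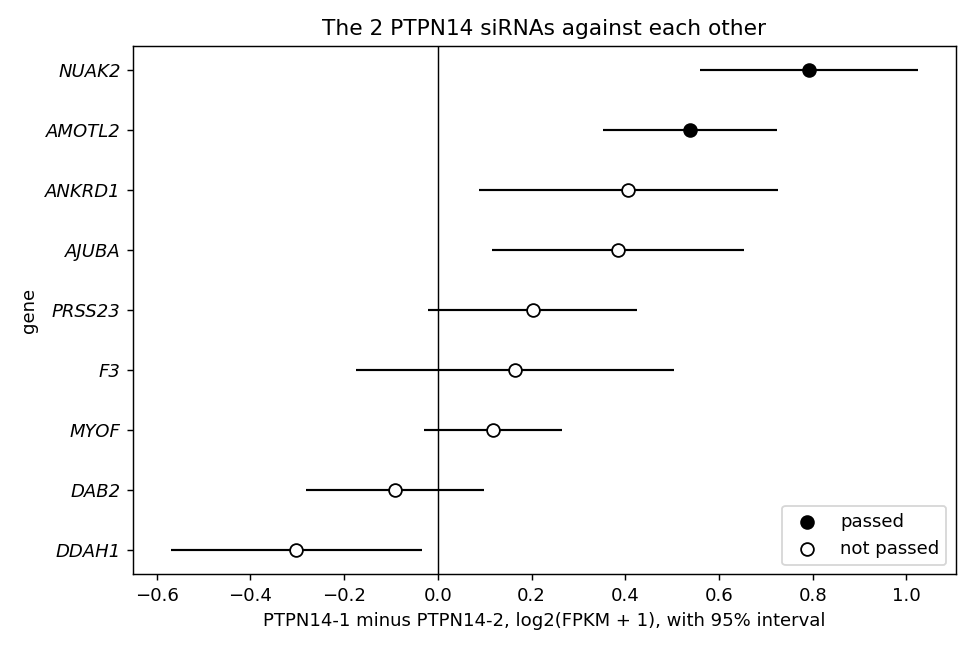
Difference between PTPN14-1 and PTPN14-2 siRNA in log2(FPKM + 1) for the 9 genes, ordered by size, with 95% intervals; filled points passed at the adjusted threshold. NUAK2 and AMOTL2 lie at 0.79 and 0.54, and DAB2 and DDAH1 lie below 0 without passing.

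The response to PTPN14 siRNA was also compared between lines, in a fit of the 9 line and target groups whose spread comes from the PTPN14 pairs alone. None of the 9 genes passed for any pair of lines by limma (adjusted p = 1.00 for all), and none of the 12276 genes did. At an unadjusted p under 0.05 there was 1 member, F3 for CAKI-1 against HK2, with a difference in response of -0.83 (SE 0.32). By that rule 1.14% of genes were called for A704 against HK2, 0.904% for CAKI-1 against HK2 and 1.37% for A704 against CAKI-1. F3 was at 0.18 to 0.30 FPKM in CAKI-1, an estimated 10 to 20 reads per library. At that level the log2(FPKM + 1) scale keeps a response near 0, so this difference is poorly resolved. For AJUBA the CAKI-1 response exceeded that of HK2 by 0.67 (SE 0.37) and for DDAH1 the A704 response was lower than that of CAKI-1 by a difference of -0.55 (SE 0.36). With this spread a difference between lines of the size seen for these genes was not detectable.

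The members were then compared with each other across all libraries after the mean of each line was subtracted. Over the 36 pairs Pearson r had a median of 0.59 and ran from -0.01 to 0.94 (12 libraries, which share 3 controls and 4 reagents; a description). No such values were taken for other sets of genes, so they do not set the members apart. AMOTL2 and AJUBA were most alike (r = 0.94), followed by DDAH1 and DAB2 (0.94), AMOTL2 and NUAK2 (0.91) and MYOF and PRSS23 (0.89). These pairs were not separate sets: AJUBA and PRSS23 and AMOTL2 and MYOF each had 0.83, above NUAK2 and AJUBA (0.78). DDAH1 had 0.35 with AMOTL2 and 0.11 with NUAK2, and 0.63 with MYOF. The lowest values were those of ANKRD1 with DDAH1 (-0.01) and with F3 (0.04).

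**Figure D5:**
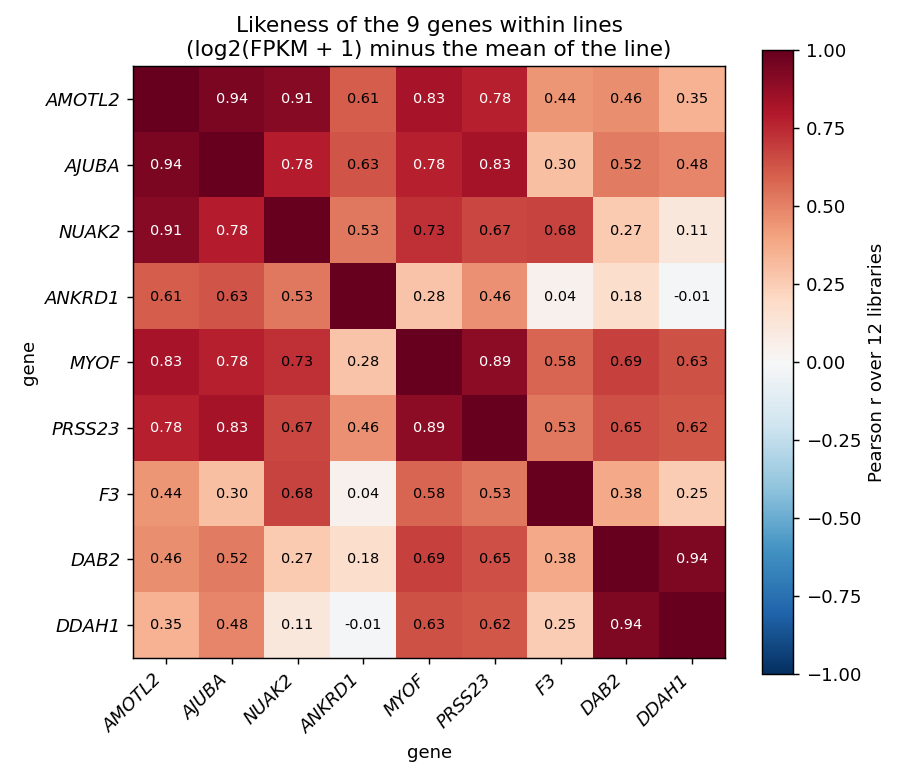
Pearson r between the 9 genes over 12 libraries, on log2(FPKM + 1) after the mean of each line was subtracted; red marks positive and blue negative values. AMOTL2, AJUBA, NUAK2, MYOF and PRSS23 have values from 0.67 to 0.94 with each other, DDAH1 and DAB2 have 0.94, and ANKRD1 and DDAH1 are at -0.01.

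The 3 genes most like each member in this measure were taken from all tested genes. They were picked as the highest r among 12276 genes over 12 libraries. High values were found for every member, so they are a description, and shared regulation was not tested. AMOTL2 was most like CLNS1A (r = 0.98), AXL, a receptor kinase and YAP target (0.95), and MGLL (0.95). AJUBA was most like CLSTN2 (0.96), AMOTL2 and DSTYK (0.94), and DDAH1 and DAB2 each had the other as its nearest gene, followed by TNFRSF19 (0.93) for DDAH1 and SC5D (0.94) for DAB2. NUAK2 was most like RQCD1 (0.98), HARS (0.97) and GADD45B (0.96), MYOF like TMEM178B (0.95), TINAGL1 and CDC42, and PRSS23 like FAM160B1 (0.95), PLEKHA8 and PPP2R1B. ANKRD1 was most like MRPL39 (0.96), TMEM126B and NAE1, and F3 like NNMT (0.96), TNFRSF9 and ADPGK.

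Of 16 other genes commonly listed as core YAP targets, 15 were tested. The list was chosen with earlier results of these data known, so its counts are a description and not independent support. With PTPN14-1 siRNA 6 rose and none fell, where 2.39% of all genes rose and 3.47% fell. The median difference was 0.30 against 0.43 for the 9 members. The 4 with the smallest p were CRIM1, AXL, CYR61 and LATS2, with 0.71, 0.56, 0.68 and 0.47 (limma adjusted p = 0.00176, 0.00246, 0.00670 and 0.00903). With PTPN14-2 siRNA 1 rose, CRIM1 at 0.49 (adjusted p = 0.0259), where 0.448% of all genes rose, and the median was 0.04. With LATS siRNA none passed by limma, where 0.122% of all genes did, and the median was 0.10. Between the PTPN14 siRNAs 7 were higher with PTPN14-1, led by TGFB2, a TGF-beta ligand, at 0.81 (adjusted p = 0.00337), and none was lower. Of all genes 5.52% were higher and 6.18% lower in that comparison.

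The closest relatives of the members were mostly less abundant. The other angiomotins, AMOT and AMOTL1, had at most 4.61 and 3.70 FPKM in any library, and the AJUBA relatives LIMD1 and WTIP at most 4.67 and 0.98. The kinase NUAK1 was at 3.74 to 6.75 FPKM, and DDAH2 was at 15.0 to 16.7 FPKM in A704 and 6.43 to 9.18 in the other lines. Exceptions included the A704 control, with NUAK1 at 6.43 FPKM against 5.28 for NUAK2. Another was the CAKI-1 control, with DDAH2 at 6.43 FPKM against 4.89 for DDAH1. Of the 11 relatives, 8 were tested and none passed by limma with any siRNA against control. NUAK1 was higher with PTPN14-1 than with PTPN14-2 by 0.36 (SE 0.10, adjusted p = 0.0351), as NUAK2 was.

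Around tissue factor, the ligand F7 was listed at 0 in 11 of the 12 libraries and at 0.02 FPKM in the other, while the pathway inhibitors TFPI and TFPI2 were at 23.9 to 205 and 70.6 to 297 FPKM. None of the 6 tested genes of that list passed against control with any siRNA. TFPI and F2RL1, a protease-activated receptor, were lower with PTPN14-1 than with PTPN14-2, by differences of -0.58 and -0.71 (limma adjusted p = 0.0206 and 0.00454). Among the endocytic partners of DAB2, LRP1, a large endocytic receptor, fell by 0.59 with PTPN14-1 (limma adjusted p = 0.0141), and none of the 8 tested passed with PTPN14-2 or LATS siRNA against control. LRP2, the endocytic receptor megalin, reached 1.83 FPKM in A704 and was listed at 0 in CAKI-1 and HK2. Of the coactivators and TEAD factors, WWTR1, which encodes TAZ, rose with PTPN14-1 by 0.41 (adjusted p = 0.0394); the other 6 did not pass with any siRNA.

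The labels call all lines epithelial. KRT8, KRT18 and the renal factor PAX8 were at 19.4 FPKM or more in every library, but EPCAM was above 1 FPKM only in HK2, and CDH1, which encodes E-cadherin, and PAX2 only in A704. The summed level of 5 endothelial markers was at most 0.47 FPKM in any library, and of 5 immune markers only CD68, a lysosomal protein that is not limited to macrophages, exceeded 1 FPKM. The fibroblast markers summed to 54.6 to 83.5 FPKM in HK2, where LUM was at 46.6 to 74.4 and DCN at 5.67 to 8.20 FPKM while COL1A2 was listed at 0, and to at most 2.55 FPKM in A704 and CAKI-1. None of the 11 markers that could be tested passed with any siRNA against control, and KRT18 was higher with PTPN14-1 than with PTPN14-2 by 0.40 (limma adjusted p = 0.0182).

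In the genome (GRCh38, GENCODE 29) ANKRD1 (90912096 to 90921276) and MYOF (93306429 to 93482317) both lie on chromosome 10, 2.39 Mb apart, and F3 (94529225 to 94541800), DDAH1 (85318481 to 85578363) and NUAK2 (205302059 to 205321791) on chromosome 1. AMOTL2 is on chromosome 3 (134355874 to 134375479), DAB2 on chromosome 5 (39371675 to 39462300), PRSS23 on chromosome 11 (86791059 to 86952910) and AJUBA on chromosome 14 (22971174 to 22982642). All are protein-coding, and all but PRSS23 lie on the minus strand.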

How the data were processed

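The authors deposited FPKM values in a single table, by gene symbol and library, to 2 decimals. No source names the unit, which was read from the values. The submitters' processing notes name STAR 2.4.0g1 and GRCh38.p1. The kit marked strand per the labels; how genes were counted and annotated was not given in the sources. Depth is an estimate, made per library from the steps that whole reads leave at low FPKM in single-exon genes (44 to 79 of them): 81.0 to 96.4% of these genes fell on the steps of the chosen depth, within rounding, and 9.9 to 12.1% (medians) on those of other depths. The gene lengths needed for it came from GENCODE, and those of the authors may differ.

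Tests used genes with FPKM over 1 in 3 or more libraries. limma 3.58.1 (R 4.3.3, statmod 1.5.0, trend and robust moderation) was fitted to log2(FPKM + 1) with 4 reagents and cell line as a block, since same-numbered libraries are the same cell line; deviations from reagent means correlated at 0.96 to 0.98 within lines. The fit was tested on simulated data. Alternatives were other pseudocounts, no filter, quantile and TPM scaling, plain limma, no block, pooled PTPN14 siRNAs, and fits without each library or line. All 9 members are named; list genes were named by smallest p, at most 4 per list and siRNA, or as relatives of a member, and likeness took the 3 highest r. FZD4 and the ranks within lines were added after their values were seen. The members and lists were chosen with earlier results of these data known. In 29 entries dates stand in place of symbols, and none is named. Some values of the endocytic list are not reported here.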

Additional observations from a re-analysis of the deposited data

Results flagged for a closer look

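In 3 cases 1 of the 4 libraries of a line stood apart from the others by more than a critical share of their range, which chance gives in about 1 in 20 groups; 27 groups of 4 libraries with different siRNAs were examined. NUAK2 in A704 was 12.15 FPKM with PTPN14-1 siRNA, with the next library at 5.93. F3 in A704 was 3.77 FPKM with PTPN14-1 siRNA, with the next at 2.30. DAB2 in A704 was 59.48 FPKM with PTPN14-2 siRNA, with the next at 49.57.

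F3 moved in opposite directions between lines with both PTPN14 siRNAs: the mean difference from control was 0.34 in A704 and 0.76 in HK2, both higher, and -0.07 in CAKI-1, where F3 was at or under 0.30 FPKM. The fit of the line and target groups tests this difference: for CAKI-1 against HK2 it was -0.83 (SE 0.32, limma adjusted p = 1.00).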

How the results depend on the processing

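No value of a member changed sign with a call in any alternative, and 1293 of 1359 alternative values for single members kept their side of the threshold. That total includes line comparisons and differences that did not pass in the main fit. The passed calls against control were less stable. With PTPN14-1, of 23 alternatives each, NUAK2 and PRSS23 lost the call in 2, AMOTL2 in 3, AJUBA in 4 and MYOF in 10. With PTPN14-2 PRSS23 lost it in 11 of 23 and DDAH1 in 10 of 23. Without the replicate block, that is with cell line left out of the model, no gene and no member passed in any siRNA comparison (0). With pooled PTPN14 siRNAs 3 genes and 0 members passed for PTPN14, and 3 genes for LATS siRNA, against 720, 166 and 15 genes for PTPN14-1, PTPN14-2 and LATS siRNA in the fit by reagent. Without the filter 355, 60 and 3 genes and, for PTPN14-2, 0 members passed. Without A704 the counts of genes were 299, 50 and 2, and 566 between the PTPN14 siRNAs (1437 with all lines), with 1 member for PTPN14-2. Without CAKI-1 they were 145, 14, 0 and 503, with 3 members for PTPN14-1 and 0 for PTPN14-2. Without HK2 they were 40, 15, 1 and 319, with 2, 0 and, between the siRNAs, 1 member (NUAK2). Fits without a line have fewer samples, and for the other settings the cause was not tested. Fits without 1 library gave 200 to 830, 34 to 252 and 3 to 20 genes, and 742 to 1638 between the PTPN14 siRNAs; members numbered 4 to 7, 0 to 3, 0 and 2 to 4. Between lines 7 to 9 members passed for A704 and HK2, 9 for CAKI-1 and HK2 and 8 for A704 and CAKI-1. The gene count moved by over 1.5 times without any 1 of the controls or the HK2 PTPN14-1 library for PTPN14-1, without any PTPN14-2 or control library or the A704 PTPN14-1 library for PTPN14-2, without any LATS or control library or the HK2 PTPN14-1 library for LATS siRNA, and without any PTPN14-2 library or the HK2 PTPN14-1 library between the PTPN14 siRNAs. PTPN14-2 had 0 members without its A704 or CAKI-1 library or the CAKI-1 or HK2 control, and 1 without its HK2 library or the A704 control. Depth limits F3 in CAKI-1, at an estimated 10 to 20 reads.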
